A study of Mus musculus with 18 samples.

Results

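The response of Camk4 mutant striatum to a single injection of cocaine was measured in 9 of the 18 arrays of the series, 1 array per mouse: 6 mutant mice given cocaine and 3 given saline. Members were chosen by the sample titles, which name the genotype, the agent and a number for each animal. Cocaine-treated mutants 1, 5 and 9, numbered in Arabic numerals like all saline animals, were compared with saline-treated mutants 3, 6 and 11 as the main estimate. Cocaine-treated mutants I and VI, numbered in Roman numerals, were set beside it, and animal III was kept apart because of its actin 3' minus 5' difference. All groups were littermates aged 10 to 20 weeks that had been caged singly and handled for 5 days. Cocaine was given intraperitoneally at 25 mg/kg, and striatum including the nucleus accumbens was taken 1 h later. The comparison group of 9 control mice (3 saline, 3 cocaine with Arabic and 3 with Roman numbers) was used for the spread between arrays and for the difference between genotypes. Neither the construct of the mutation nor the cells carrying it is named in the labels. Groups rest on the titles alone, because 0 of 18 description lines match their title and the protocol text gives cocaine for every mouse.

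Camk4 encodes CaMKIV, a nuclear kinase activated by calcium and calmodulin that phosphorylates the transcription factor CREB. Cocaine blocks the dopamine transporter, and dopamine acting on the D1 receptor of medium spiny neurons, together with glutamate, activates the cAMP, calcium and MAP kinase pathways. These pathways switch on immediate early genes within minutes without new protein synthesis. Many of these genes encode transcription factors of the AP-1, Egr and Nr4a families, and others act at synapses or feed back on the kinases that induced them. Every level below is a log2 GCRMA expression value of a probe set, every change is a difference of such values, and a change of 1 is a doubling. Errors of changes are standard errors of the fit and errors of levels are SD.

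Camk4 signal was detected in both genotypes and lay lower in mutant than in control saline arrays. Probe set 1426167_a_at lay between 7.14 and 7.47 in mutant saline arrays and between 7.59 and 7.72 in control saline arrays, so these groups did not overlap. Probe set 1421941_at lay at 5.26 to 5.36 and 5.36 to 5.65. Where either lies relative to the mutated part of the gene is not given, so neither checks the genotype. The actin 3' minus 5' difference, which grows as RNA is less intact, averaged 2.31 ± 0.09 in mutant saline and 2.33 ± 0.16 in cocaine animals 1, 5 and 9 (SD, n = 3 each). It was 1.68 and 1.63 in animals I and VI and 3.59 in animal III. Animal III also had the highest Gapdh 3' minus 5' difference of the mutant arrays, 0.63, and the lowest mean correlation with them, 0.969 across probe sets.

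In cocaine animals 1, 5 and 9, Fos, Egr2, Nr4a1, Tiparp and Tob2 were higher than in saline animals and Rgs4, Oga and Gdap1 were lower. On the probe sets that fell, cocaine animals I and VI were not lower than saline animals, and Gdap1 passed only on its dimmest probe set. The rises ran from 1.52-fold for Tob2 to 21.0-fold for Fos, and the falls from 1.25-fold to 1.81-fold. Of 12674 probe sets tested, 10 passed an adjusted p of 0.05 (0.0789%): 6 were higher (0.0473%) and 4 lower (0.0316%). None of the rises passed in a fit of the 12 Arabic-numbered arrays (0 higher, 3 lower), of the 9 mutant arrays (0 and 1), of the arrays compared alone (0 and 1), without a variance trend (0 and 1) or in an ordinary linear model (0 and 0). At an unadjusted p under 0.05 there were 1490 (11.8%), 459 higher (3.62%) and 1031 lower (8.13%). The count rested on few arrays. It was 0 without saline animal 3, 1 without saline animal 6, cocaine animal 5 or cocaine animal 9, and 3 without saline animal 11. It was 16 without cocaine animal 1, 10 without animal III and 4 without animal I or VI, which enter through the shared spread. Control arrays enter in the same way: it was 19 without cocaine control 12, 16 without II, 4 without 2 or IV, 5 without V, 4 without saline control 4 and 6 without 8 or 10.

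Fos, a subunit of the AP-1 transcription factor, showed the largest change. Its level was 4.81, 4.79 and 4.65 in saline animals 3, 6 and 11, and 7.39, 9.60 and 10.43 in cocaine animals 1, 5 and 9. The saline values were below the medians of those arrays over all probe sets (5.12, 5.14 and 5.07), so the fold rests on a dim saline level. All 3 cocaine arrays were above all saline arrays, with animal 1 the lowest of them. The change was 4.39 ± 0.63 (95% interval 3.04 to 5.73, adjusted p = 0.0199). Animals I, III and VI reached 10.68, 10.92 and 11.26, above each of the animals 1, 5 and 9.

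Egr2, a zinc-finger transcription factor, was at 6.50, 6.84 and 6.49 after saline and 8.36, 10.06 and 9.98 after cocaine on probe set 1427683_at. The groups did not overlap, and the change was 2.85 ± 0.47 (adjusted p = 0.0389). A second Egr2 probe set, 1427682_a_at, gave 2.96 ± 0.48 with the same adjusted p. Nr4a1, an orphan nuclear receptor, was at 8.80, 9.34 and 8.71 after saline and at 10.01, 10.97 and 11.41 after cocaine. Its arrays were again separate by treatment, with animal 1 nearest to saline, and the change was 1.85 ± 0.31 (adjusted p = 0.0461). In animals I, III and VI Egr2 stood at 11.16, 11.84 and 11.66 and Nr4a1 at 11.78, 12.09 and 12.04.

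Tiparp and Tob2 completed the probe sets that rose. Tiparp, a mono-ADP-ribosyltransferase induced by the aryl hydrocarbon receptor and by neuronal activity, stood at 6.83, 7.20 and 6.99 in saline animals 3, 6 and 11. In animals 1, 5 and 9 it stood at 7.86, 8.90 and 8.98, a change of 1.57 ± 0.27 (adjusted p = 0.0461) with no overlap. Probe sets 1452160_at and 1452161_at of Tiparp gave 1.53 ± 0.41 and 1.99 ± 0.50 without passing the threshold (adjusted p = 0.176 and 0.161). Tob2, an antiproliferative protein of the BTG/TOB family that recruits mRNA deadenylases, had the smallest spread: 8.67, 8.54 and 8.53 after saline and 9.01, 9.34 and 9.20 after cocaine. Its change of 0.61 ± 0.09 passed (adjusted p = 0.0236), whereas its dimmer probe sets 1448667_x_at (0.39 ± 0.10) and 1417309_at (0.49 ± 0.20) did not.

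**Figure D1:**
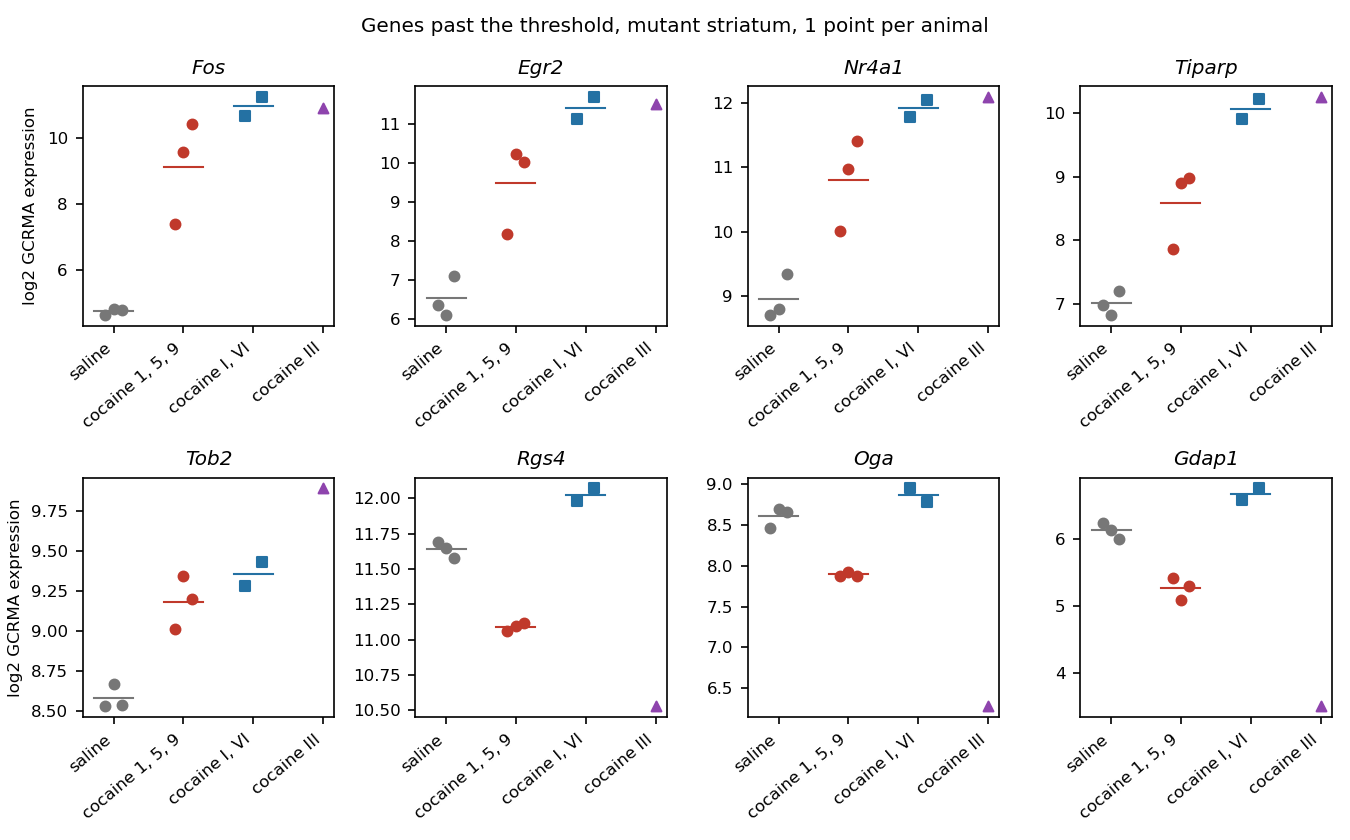
Level of each gene past the threshold (y axis, log2 GCRMA expression, the probe set of smallest p for each gene) in each mutant animal, grouped on the x axis as saline, cocaine animals 1, 5 and 9, cocaine animals I and VI, and animal III; lines are group means. Fos, Egr2, Nr4a1, Tiparp and Tob2 are higher in all 6 cocaine animals than in all saline animals, whereas Rgs4, Oga and Gdap1 are below saline in animals 1, 5, 9 and III and above it in I and VI.

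Promoter sequence was set beside these genes because CREB, the substrate of CaMKIV, binds the cAMP response element (CRE), TGACGTCA, or its shorter core TGACG, which reads CGTCA on the other strand. RefSeq promoter windows of GRCm38.p6, from 250 bases before to 50 bases after each annotated start, were found for 7 of the 8 genes past the threshold. The 4 with a core are shown from 5′ to 3′ on the gene's own strand, ending at the base before the start, with cores in capitals. They are the Fos window at chr12:85473640-85473889 on the plus strand, the Egr2 window at chr10:67537619-67537868 on the plus strand, the Nr4a1 window at chr15:101266596-101266845 on the plus strand and the Rgs4 window at chr1:169747643-169747892 on the minus strand.
Fos: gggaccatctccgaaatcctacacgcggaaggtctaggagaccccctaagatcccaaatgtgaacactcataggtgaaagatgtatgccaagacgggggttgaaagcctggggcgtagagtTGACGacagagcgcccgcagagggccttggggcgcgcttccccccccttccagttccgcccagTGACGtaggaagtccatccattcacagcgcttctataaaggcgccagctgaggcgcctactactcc
Egr2: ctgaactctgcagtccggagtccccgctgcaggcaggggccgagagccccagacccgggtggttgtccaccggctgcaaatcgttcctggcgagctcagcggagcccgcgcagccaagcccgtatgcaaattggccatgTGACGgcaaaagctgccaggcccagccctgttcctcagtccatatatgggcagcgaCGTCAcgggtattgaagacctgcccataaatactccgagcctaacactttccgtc
Nr4a1: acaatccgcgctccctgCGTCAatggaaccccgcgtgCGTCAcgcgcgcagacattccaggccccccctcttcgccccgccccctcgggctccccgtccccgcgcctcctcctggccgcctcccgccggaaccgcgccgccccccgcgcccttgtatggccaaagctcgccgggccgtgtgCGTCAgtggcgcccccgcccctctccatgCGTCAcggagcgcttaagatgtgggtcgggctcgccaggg
Rgs4: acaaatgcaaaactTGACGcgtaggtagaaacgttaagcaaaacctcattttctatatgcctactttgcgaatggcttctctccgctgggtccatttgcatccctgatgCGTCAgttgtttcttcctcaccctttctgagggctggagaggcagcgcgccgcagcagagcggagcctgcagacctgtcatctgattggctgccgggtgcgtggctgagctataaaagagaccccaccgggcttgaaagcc

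Cores began at −129 and −66 in Fos, at −111 and −55 in Egr2, at −233, −213, −69 and −40 in Nr4a1 and at −236 and −141 in Rgs4, counted from the annotated start. Egr2 has 5 annotated starts, and 3 overlapping windows hold this pair. A core was thus present for 3 of the 5 genes that rose and for 1 of the 2 genes that fell and had a window. Among 6204 tested genes with a window, 38.2% had one. The full CRE and the AP-1 site (TGACTCA or TGAGTCA) were in none of these windows. They were present for 3.74% and 4.40% of the tested genes. The CArG box was searched only as the exact letters of the Fos serum response element. Those letters were found for 0% of the tested genes, so their absence here says nothing about CArG boxes. Other forms of the box were not searched. TATAAA or its complement began at −33 in Fos and −31 in Rgs4 and was present for 8.61% of tested genes. Both strands were searched, a core also counts where it is part of a full CRE, and a match is a description of letters.

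The other immediate early transcription factors did not pass, though each fitted change was above 0. Of 19 genes on the list, 18 were on the array and 12 were bright enough to test. Fos, Egr2 and Nr4a1 passed, none was lower, and 10 of 12 had all 3 cocaine arrays above all saline arrays, against 940 of 12674 probe sets (7.42%). The median change over the 12 was 1.49, beside 0.00 over 7583 genes. Egr4, Fosb and Nr4a2 were not above the filter's level of 4 in 3 of the 6 saline arrays and so were tested only because of their cocaine arrays. Over the other 9 the same arrangement held for 8 and the median was 1.20. Junb, an AP-1 subunit, was at 7.41, 7.43 and 7.44 after saline and 8.44, 9.81 and 10.38 after cocaine. Its saline arrays spanned almost nothing, its cocaine arrays were all higher, and its change was 2.12 ± 0.40 (adjusted p = 0.0753). Fosb, another AP-1 subunit, was at 3.77, 3.49 and 3.48 and then 4.88, 6.48 and 6.42, a change of 2.35 ± 0.48 (adjusted p = 0.0969).

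Egr4, Jun, Klf10 and Egr1, transcription factors chosen like Fosb after their values were seen, gave 1.77 ± 0.46, 1.20 ± 0.34, 0.68 ± 0.17 and 0.59 ± 0.15 (adjusted p = 0.170 to 0.199). Egr1, an abundant zinc-finger factor, had high levels already after saline: 12.08, 12.28 and 11.84, against 12.35, 12.89 and 12.73 after cocaine. Jund, the most constitutive AP-1 subunit, lay at 10.79 to 10.85 after saline and 10.87 to 11.20 after cocaine. Cocaine animal 1 was the lowest of the 6 cocaine animals for 10 of these 12 genes, beside 601 of 7583 genes overall. Animal III was the highest for 7 of 12, beside 2731 of 7583.

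Among 17 tested genes for activity-induced effectors, Tiparp rose and Rgs4 fell, 7 were higher and 2 lower at an unadjusted p under 0.05, and the median change was 0.17 (3.62% of all probe sets were higher and 8.13% lower at that p). Without Ccn1, Gpr3 and Ptgs2, which reached the filter's level only through cocaine arrays, 6 of 14 were higher and the median was 0.11. Arc, a synaptic protein that promotes AMPA receptor endocytosis, was at 7.38, 7.66 and 6.37 after saline and 8.48, 10.44 and 10.34 after cocaine. The groups were separate, but the saline arrays differed by more than 1 unit among themselves, and the change of 2.62 ± 0.48 did not pass (adjusted p = 0.0753). Gpr3, a constitutively active receptor coupled to adenylyl cyclase, was dim after saline at 3.49, 3.50 and 3.71 and reached 4.37, 5.11 and 5.80 after cocaine, a change of 1.53 ± 0.30 (adjusted p = 0.0843). GCRMA compresses such dim values. Btg2, an antiproliferative gene of the same family as Tob2, was also dim, at 3.87, 3.74 and 4.54. After cocaine it reached 4.92, 7.00 and 7.94, a wide spread among animals (2.57 ± 0.70, adjusted p = 0.183).

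Growth arrest genes gave a similar account. Of 10 tested, Tob2 passed (0.0473% of all probe sets were called higher), 6 had cocaine arrays all above saline (7.42% of all) and the median change was 0.67. Midn, a nuclear protein that directs proteasomal degradation of immediate early factors, was at 7.56, 7.58 and 7.17 after saline and 8.05, 8.75 and 8.57 after cocaine (1.02 ± 0.20, adjusted p = 0.0791). Gadd45b and Gadd45g, stress-inducible growth arrest genes, gave 1.21 ± 0.38 and 0.73 ± 0.21 (adjusted p = 0.239 and 0.199). Sertad1, a regulator of Cdk4, gave 1.01 ± 0.25 (adjusted p = 0.154).

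No MAP kinase feedback gene passed among 7 tested. Dusp1, a nuclear phosphatase of MAP kinases, was at 8.52, 8.38 and 8.38 after saline and 9.25, 10.28 and 10.84 after cocaine, with no overlap (1.70 ± 0.39, adjusted p = 0.137). Dusp6, the cytoplasmic ERK phosphatase, gave 0.69 ± 0.29 (adjusted p = 0.370). Of 18 clock genes none passed and the median change was 0.07. Bhlhe40, a clock repressor, was at 8.45, 8.35 and 8.65 and then 9.17, 9.30 and 9.54 (0.85 ± 0.16, adjusted p = 0.0791), and Per1, a period gene with CREB-responsive transcription, gave 0.66 ± 0.18 (adjusted p = 0.176). Clock itself gave −0.31 ± 0.09 (adjusted p = 0.189).

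CREB targets as a list overlap the groups above. Of 15 tested, 2 rose (Fos and Nr4a1, against 0.0473% of all probe sets) and 8 had cocaine arrays all above saline (7.42% of all). Without Fosb, Nfil3 and Nr4a2, tested only through cocaine arrays, 6 of 12 did. Of the 4 neuropeptide genes on that list, Penk, Tac1 and Sst lay within 13.82 to 14.00, 13.15 to 13.42 and 11.13 to 11.57 over all 9 mutant arrays. Pdyn, the prodynorphin gene, ranged more widely, from 7.72 to 8.79, with a change of −0.30 that did not pass. Glucocorticoid response genes, of which Dusp1, Per1 and Sgk1 are shared with other lists, had 0 of 14 past the threshold, 4 higher (3.62% of all probe sets) and 0 lower at an unadjusted p under 0.05, and a median change of 0.23. Sgk1, a kinase induced by glucocorticoids, gave 0.48 ± 0.17 (adjusted p = 0.283). Dnajb5, an Hsp40 co-chaperone, gave 0.76 ± 0.20 (adjusted p = 0.176), and no heat shock or ER stress gene passed among 15.

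Rgs4 had the smallest p of all probe sets. It encodes a GTPase-activating protein that shortens signalling through Gi and Gq. Probe set 1416287_at stood at 11.65, 11.58 and 11.69 in saline animals and 11.06, 11.10 and 11.12 in cocaine animals 1, 5 and 9. All 3 cocaine arrays were lower, within 0.06 of each other, and the change was −0.55 ± 0.065 (95% interval −0.69 to −0.41, adjusted p = 0.00595). The brightest Rgs4 probe set, 1416286_at, gave −0.32 ± 0.05 (adjusted p = 0.0199). The dimmest, 1448285_at, gave −0.71 ± 0.13 (adjusted p = 0.0753). Animal III was lower still at 10.53 on 1416287_at, whereas animals I and VI stood at 11.98 and 12.07, above every saline array.

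Oga, the enzyme that removes O-linked N-acetylglucosamine from proteins, showed the same arrangement. Probe set 1422900_at was at 8.70, 8.66 and 8.47 after saline and at 7.88, 7.93 and 7.88 in animals 1, 5 and 9 (−0.71 ± 0.12, adjusted p = 0.0389). It was 6.28 in animal III and stood at 8.95 and 8.78 in I and VI. Its other probe sets did not pass: 1433654_at, the brightest, gave −0.21 ± 0.05, 1422902_s_at −0.55 ± 0.12 and 1422901_at −0.66 ± 0.15 (adjusted p = 0.129 to 0.159). Gdap1, an outer mitochondrial membrane protein mutated in Charcot-Marie-Tooth disease, passed only on its dimmest probe set, 1423329_at. That probe set was at 6.14, 6.01 and 6.25 after saline and 5.43, 5.09 and 5.30 after cocaine (−0.85 ± 0.15, adjusted p = 0.0461), with 3.51 in animal III and 6.59 and 6.76 in I and VI. The brighter Gdap1 probe sets 1423328_at and 1450940_at gave −0.12 ± 0.06 and −0.06 ± 0.08 (adjusted p = 0.426 and 0.828), so the probe sets of this gene disagreed.

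Genes of the next smallest p on the lower side did not pass. Arfgef1, an exchange factor for ARF GTPases, gave −0.30 ± 0.06 (adjusted p = 0.0753), and Foxp2, a forkhead factor of striatal projection neurons, gave −0.49 ± 0.10 (adjusted p = 0.0941). Ppp2r2b, a regulatory subunit of protein phosphatase 2A, gave −0.27 ± 0.06, and Prkar1a, the RIα regulatory subunit of protein kinase A, gave −0.26 ± 0.06. Slmap, a tail-anchored membrane protein, gave −0.25 ± 0.05, Etnk1, an ethanolamine kinase, −0.21 ± 0.05, and Aff4, a scaffold of the super elongation complex, −0.28 ± 0.07 (adjusted p = 0.108 to 0.137). Cocaine animals 1, 5 and 9 were below all saline arrays for each of these 7 genes, an arrangement met by 1552 of 12674 probe sets (12.2%).

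Animals I and VI had higher mean levels of Fos, Egr2, Nr4a1, Tiparp and Tob2 than animals 1, 5 and 9. They did not show the lower levels of Rgs4, Oga and Gdap1 on the probe sets that had passed. On Oga 1433654_at, which had not passed, all 6 cocaine arrays were below all saline arrays. The change there was −0.05 ± 0.06 in animals I and VI. In animals I and VI against the same saline arrays, 527 probe sets passed (4.16%), 269 higher (2.12%) and 258 lower (2.04%). Fos changed by 6.22 ± 0.71 (adjusted p = 0.000361), Egr2 by 4.80 ± 0.52, Arc by 3.83 ± 0.53, Fosb by 3.49 ± 0.54, Junb by 3.19 ± 0.44, Tiparp by 3.06 ± 0.30 and Nr4a1 by 2.96 ± 0.35, each past the threshold. Of the 12 immediate early transcription factors 9 were past it, all higher, with a median change of 2.64 (2.32 over the 9 above the filter's level in saline arrays). Oga 1422900_at and Gdap1 1423329_at gave 0.25 ± 0.13 and 0.54 ± 0.17 (adjusted p = 0.279 and 0.0746). Rgs4 1416287_at rose by 0.38 ± 0.07 (adjusted p = 0.0106).

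Numbering moves with the actin difference: these 2 animals had the smallest values among the mutants, no saline animal carries a Roman number, and with the actin difference as a covariate 0 probe sets passed by limma (1184 at an unadjusted p under 0.05). Numbering series and cocaine therefore cannot be told apart in this estimate. The count was 145 without animal I and 170 without VI, where the cell holds 1 array that is assumed to vary like the others. It was 212, 247 and 337 without saline animals 3, 11 and 6.

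**Figure D2:**
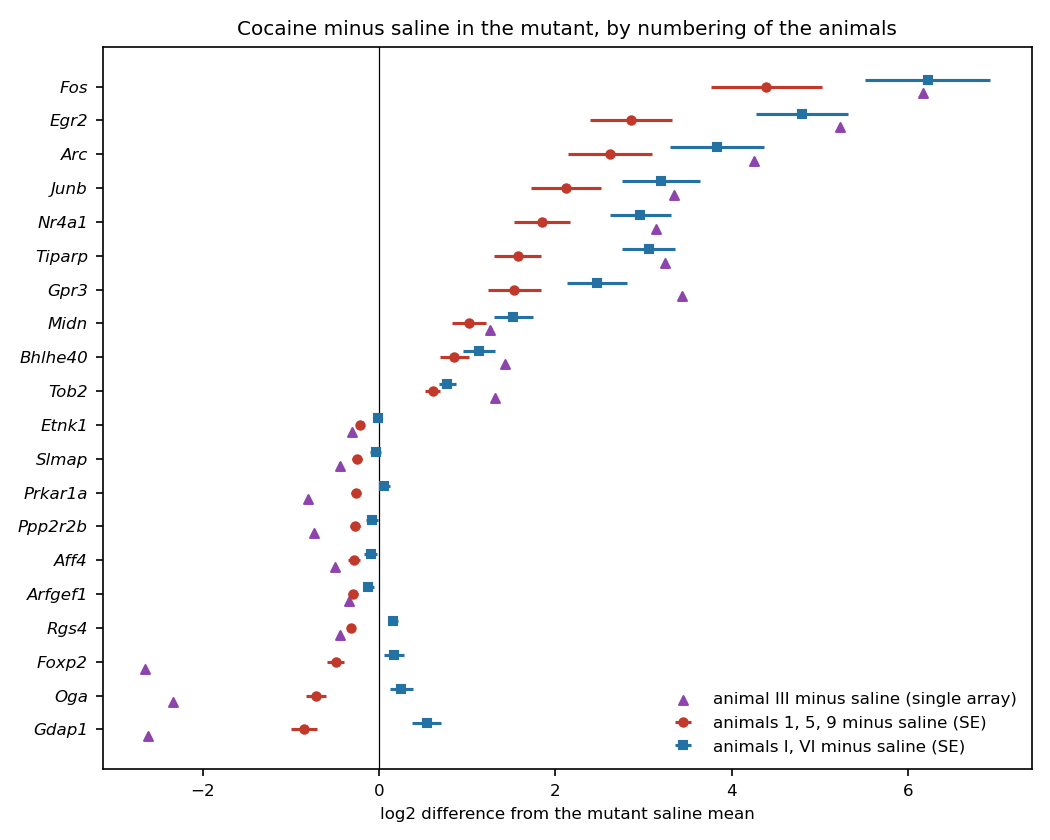
Change from the mutant saline mean (x axis, log2) for genes past the threshold and those of next smallest p (y axis, brightest qualifying probe set of each gene), in animals 1, 5 and 9 (circles, SE), animals I and VI (squares, SE) and animal III (triangles, single array). The 10 induced genes are positive in all 3 sets. Rgs4, Oga, Gdap1, Foxp2 and, by a small margin, Prkar1a are negative in animals 1, 5, 9 and III and positive in I and VI.

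The direct difference between the numbering series, animals I and VI minus 1, 5 and 9, was added after the data were seen and is among cocaine-treated mutants only. It called 1441 probe sets (11.4%), 841 higher (6.64%) and 600 lower (4.73%). Rgs4 1448285_at differed by 2.03 (adjusted p = 1.13e-05), Rgs4 1416287_at by 0.93, Gdap1 1423329_at by 1.40, Oga 1422900_at by 0.97, Tiparp by 1.48 and Egr2 by 1.94, all past the threshold. The differences of Fos (1.83, adjusted p = 0.107), Nr4a1 (1.115, adjusted p = 0.053) and Tob2 (0.17, adjusted p = 0.294) did not pass. Homer1, a postsynaptic scaffold with an activity-induced short form, stood at 8.21, 8.44 and 8.27 after saline, 7.88, 7.75 and 8.07 in animals 1, 5 and 9, 6.82 in III and 8.65 and 8.96 in I and VI. Ppp3cb, a catalytic subunit of calcineurin, ran the same way, at 10.47 to 10.58 after saline, 10.13 to 10.16 in animals 1, 5 and 9, 8.94 in III and 10.84 and 10.76 in I and VI. Animals 1, 5, 9 and III all below saline with I and VI above it was the arrangement of 450 probe sets (3.55%), and the opposite one of 156 (1.23%).

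Animal III, a single array with no test, had Fos 6.17, Egr2 5.23, Arc 4.25, Gpr3 3.43, Tiparp 3.25 and Nr4a1 3.14 above the saline mean. Its difference from the saline mean was −2.66 for Foxp2, −2.62 for Gdap1 1423329_at and −2.34 for Oga 1422900_at. In all, 188 probe sets were at least 1 unit above the saline mean in this array (1.48%) and 723 at least 1 unit below it (5.70%). Of the 1552 probe sets below saline in all of animals 1, 5 and 9, animal III was lower than each of them for 1057 (68.1%). Of the 940 above saline it was higher than each for 578 (61.5%). All 6 cocaine arrays were above all saline arrays for 227 probe sets (1.79%), among them the 6 that rose, and below for 324 (2.56%), none of them among the 4 that fell.

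**Figure D3:**
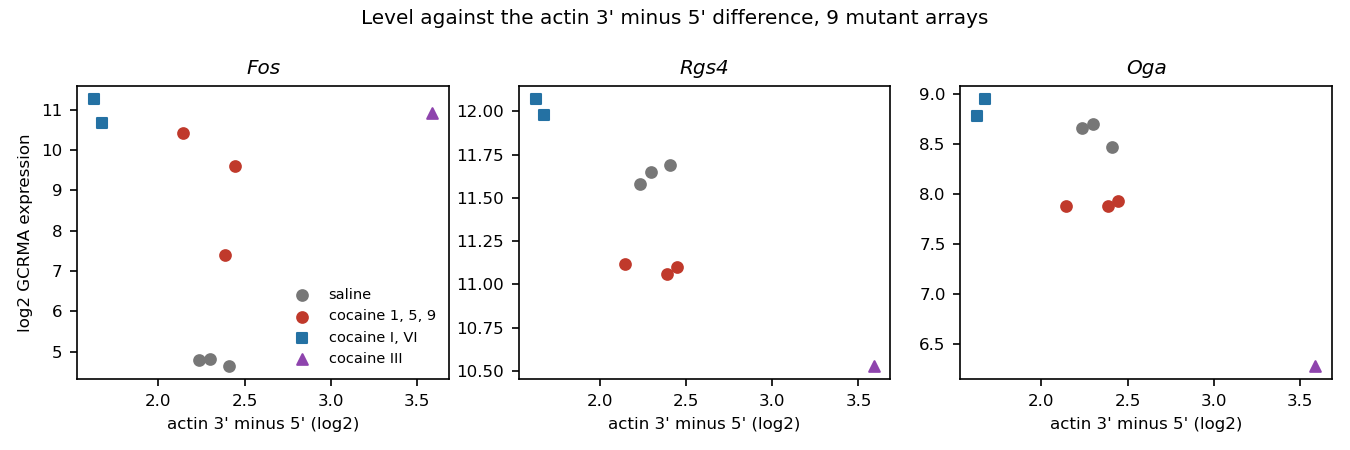
Level (y axis, log2 GCRMA expression) of Fos, Rgs4 1416287_at and Oga 1422900_at against the actin 3' minus 5' difference (x axis, log2) in the 9 mutant arrays, coloured by group. Fos is above saline in all 6 cocaine animals, whereas Rgs4 and Oga are highest in animals I and VI (actin 1.68 and 1.63) and lowest in animal III (3.59), with animals 1, 5 and 9 below saline at like actin values.

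The part of RNA integrity in the lower calls was not tested beyond these values. Saline animals and animals 1, 5 and 9 had like actin differences (2.31 and 2.33). Their Gapdh 3' minus 5' differences did not overlap: −0.06 to 0.02 after saline and 0.04 to 0.08 in animals 1, 5 and 9. The Gapdh difference was −0.30 and −0.24 in animals I and VI and 0.63 in animal III. With the actin difference as a covariate 4 of the 10 probe sets still passed: Fos, Tob2 and both Rgs4 probe sets. Their changes were not called where animal III was counted with I and VI, a fit in which 0 probe sets passed by limma (546 at an unadjusted p under 0.05).

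Signalling genes upstream of the immediate early response showed no call. Of 16 tested CaMK and CREB signalling genes 0 passed by limma (1 higher and 2 lower at an unadjusted p under 0.05), and of 13 dopamine and cAMP signalling genes 0 passed (0 and 2). Over the 9 mutant arrays Ppp1r1b, the dopamine-regulated phosphatase inhibitor DARPP-32, lay at 13.29 to 13.40, Drd2, the D2 receptor, at 11.41 to 11.80 and Ppp3ca, a calcineurin catalytic subunit, at 13.76 to 14.01. For Ppp3ca, animals 1, 5 and 9 were below all saline arrays (−0.14 ± 0.03), as for 12.2% of all probe sets. Animals I and VI were above them. The 10 neuropeptide genes had a median change of 0.02 and none at an unadjusted p under 0.05. Among 6 ionotropic glutamate receptor subunits, 3 were lower (8.13% of all probe sets) and 1 higher (3.62%) at an unadjusted p under 0.05, and none passed. Gria1 and Gria2, AMPA receptor subunits, lay at 11.35 to 11.53 and 11.65 to 12.24. For both, all 6 cocaine arrays were below all saline arrays, as for 2.56% of all probe sets. Their changes in animals 1, 5 and 9 were −0.085 ± 0.046 and −0.12 ± 0.05.

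Several markers of medium spiny neurons were bright. Besides Ppp1r1b, Penk and Tac1, Arpp21, a cAMP-regulated phosphoprotein of medium spiny neurons, lay at 13.98 to 14.27. All 6 cocaine arrays of Arpp21 were below all saline arrays, as for 2.56% of all probe sets. Its change in animals 1, 5 and 9 was −0.14 ± 0.03. Some listed markers of other regions were bright too. Nrgn and Lamp5 of the cortical list lay at 11.62 to 12.50 and 10.96 to 11.17. Lhx2 of the thalamus and septum list lay at 8.58 to 8.91. Nr4a2 and Tbr1 of the cortical list and Trpc4 of the other were dim in saline arrays. The tissue is therefore named from the labels and not from these levels. The choroid plexus gene Ttr was near the floor, at 2.26 to 5.29, and 0 of the red blood cell markers was bright enough to test. None of the tested markers of medium spiny neurons, interneurons, cortical neurons, thalamus and septum, oligodendrocytes, astrocytes, microglia, endothelium or choroid plexus passed. The largest median change of a marker list with at least 5 genes was 0.10, for microglia. The median over 10 oligodendrocyte genes was 0.05 in animals 1, 5 and 9 and 0.35 in animal III. Mbp, the myelin basic protein gene, lay at 14.54 to 14.64. In bulk tissue, fewer cells of a type and less RNA per cell cannot be told apart.

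**Figure D4:**
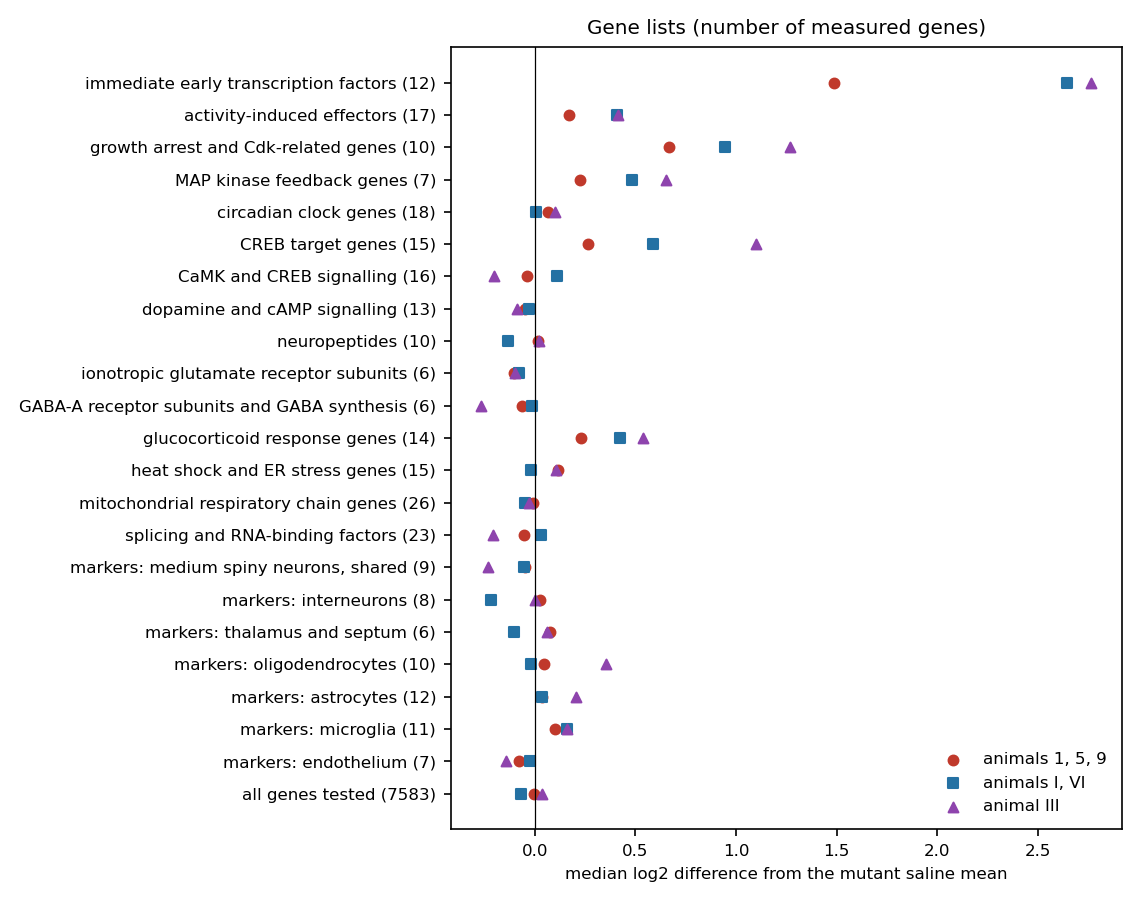
Median change from the mutant saline mean (x axis, log2) over the measured genes of each list (y axis, number of genes in parentheses) in animals 1, 5 and 9 (circles), I and VI (squares) and III (triangles). Immediate early transcription factors stand at 1.49, 2.64 and 2.77, growth arrest genes at 0.67, 0.95 and 1.27. The marker lists plotted (at least 5 genes) lie within 0.10 of 0 in animals 1, 5 and 9, whereas oligodendrocyte markers reach 0.35 in III and interneuron markers −0.22 in I and VI.

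The cocaine response of mutants was also set against that of controls with Arabic numbers, the comparison that asks whether CaMKIV alters it. No probe set passed for the difference (0% of 12674 by limma, smallest adjusted p = 0.992), and 574 were at an unadjusted p under 0.05 (4.53%). In the same fit of all 18 arrays, Arabic-numbered control cocaine animals against control saline animals gave 47 probe sets (0.371%), 35 higher (0.276%) and 12 lower (0.0947%). Fos rose by 4.71 ± 0.63 in controls and 4.39 ± 0.63 in mutants, a difference of −0.32 with a 95% interval of −2.23 to 1.58. Its levels differed: 5.86 ± 0.78 after saline and 10.57 ± 1.11 after cocaine in controls, against 4.75 ± 0.09 and 9.14 ± 1.57 in mutants (SD). Tob2 rose by 0.60 ± 0.09 and 0.61 ± 0.09, a difference of 0.00 (−0.27 to 0.28). Egr2 rose by 4.06 ± 0.47 in controls and 2.85 ± 0.47 in mutants, a difference of −1.20 (−2.61 to 0.21).

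For 2 of the induced genes named above the unadjusted interval of the brightest probe set lay below 0. Tiparp 1426721_s_at rose by 2.59 ± 0.27 in controls against 1.57 ± 0.27 in mutants, a difference of −1.01 (−1.83 to −0.20). The other Tiparp probe sets, 1452160_at and 1452161_at, gave differences of −0.90 (−2.14 to 0.33) and −0.61 (−2.11 to 0.90), intervals that include 0. Gpr3 rose by 2.56 ± 0.30 in controls, against 1.53 ± 0.30 in mutants, a difference of −1.03 (−1.94 to −0.12). Plk2, another gene of the effector list, was not called in either genotype (0.41 ± 0.12 in controls and 0.02 ± 0.12 in mutants). Its difference was −0.39 (−0.77 to −0.01). None of these differences passed after adjustment. Differences were below 0 for 9 of 12 immediate early transcription factors, 16 of 17 effectors, 9 of 10 growth arrest genes and 6 of 7 MAP kinase feedback genes, beside 4294 of 7583 genes overall. These counts include Egr4, Fosb, Nr4a2, Ccn1, Gpr3 and Ptgs2, which were tested only because of their cocaine arrays. Of these only Nr4a2 had a difference above 0. Without a test of the lists, and with cocaine animal 1 low for most of these genes, the counts are given as a description.

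**Figure D5:**
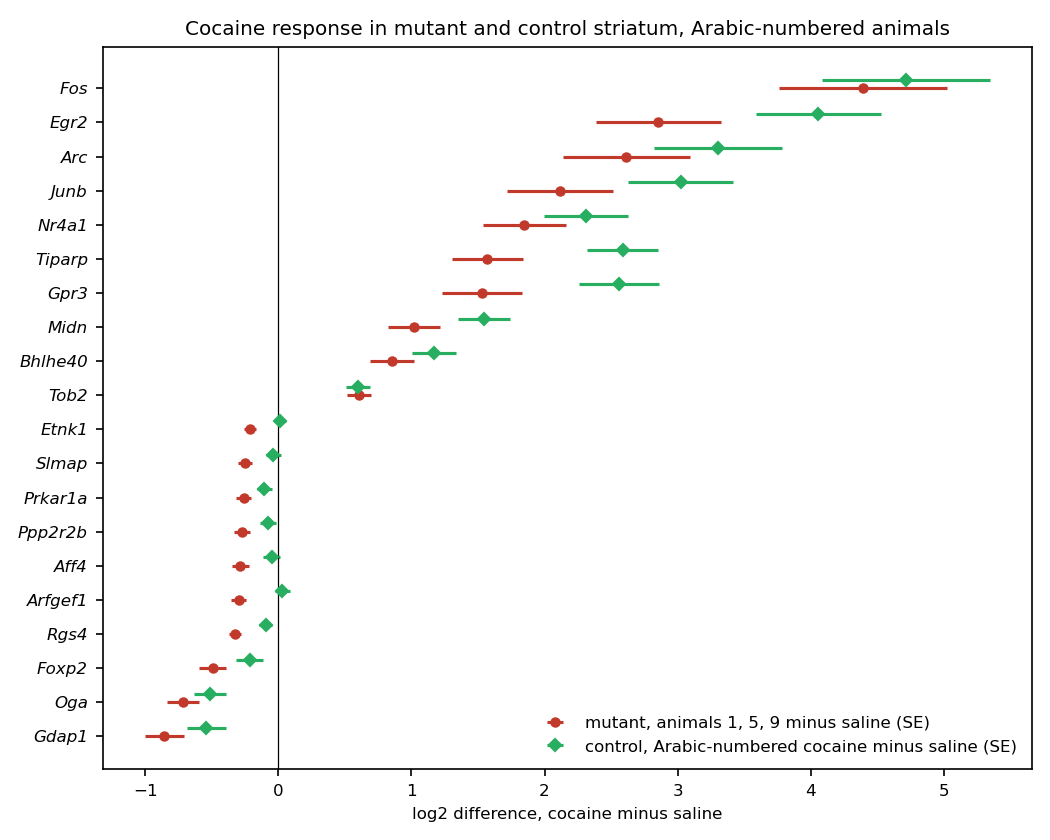
Change after cocaine (x axis, log2, SE) in Arabic-numbered mutants (circles) and controls (diamonds), n = 3 animals per group, for genes past the threshold in mutants and those of next smallest p (y axis). Mutant values are at or below control values for most induced genes, with Fos at 4.39 and 4.71 and Tob2 at 0.61 and 0.60, and no difference passed the threshold.

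On the lower side, Rgs4 1416287_at gave −0.24 ± 0.065 in controls (adjusted p = 0.154) and −0.55 ± 0.065 in mutants, a difference of −0.31 (−0.51 to −0.12). Rgs4 1448285_at fell by 0.74 on the log2 scale in controls (adjusted p = 0.0254) and gave −0.71 in mutants, so that the probe sets of this gene did not give 1 account of the difference. Oga 1422900_at gave −0.51 ± 0.12 in controls and Gdap1 1423329_at −0.54 ± 0.15, neither past the threshold, with differences of −0.20 (−0.56 to 0.15) and −0.32 (−0.76 to 0.13). The smallest p of the difference belonged to Arfgef1 (−0.33, −0.49 to −0.16), Ifit2, an interferon-induced gene (−1.18, −1.77 to −0.59), Dmkn (1.04, 0.48 to 1.60), Ckmt1, the mitochondrial creatine kinase (0.49, 0.21 to 0.76), and Tmem87a (6.09, 2.68 to 9.50), none past the threshold.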

How the data were processed

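Striatal RNA of 18 mice was hybridised to Affymetrix arrays, per the labels' protocols. The deposited table holds log2 expression values for 22690 probe sets, made by the authors with GCRMA in R 2.4.1, per the submitters' processing notes, whose settings no source used here states. GCRMA equalises array distributions and compresses dim values. Keeping probe sets above a log2 level of 4 on 3 or more arrays, without the 64 control probe sets, left 12674, named only where they carry 1 symbol (11749).

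A limma 3.58.1 model (R 4.3.3) with 7 cells (genotype by treatment by numbering, animal III alone) was fitted to all 18 arrays with a variance trend, two-sided moderated tests and Benjamini-Hochberg adjustment over all 12674, and was tested on simulated data. An adjusted p under 0.05 was the threshold, and intervals are unadjusted. The number of arrays limits the precision.

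Named are genes past the threshold with their other probe sets, those of smallest p up to 10 per direction, list members past the threshold or a list's 2 brightest, the 5 of smallest p for the difference, and Camk4. Btg2, Clock, Dnajb5, Dusp6, Egr1, Egr4, Fosb, Gadd45b, Gadd45g, Homer1, Jun, Jund, Klf10, Per1, Plk2, Ppp3cb, Sertad1 and Sgk1 were chosen after their values were seen. A list's gene stands as its brightest probe set. Members and lists were chosen with earlier results of these data known. Alternatives covered filters, moderation, arrays fitted, pairing, animal III, array weights, the actin covariate, centring and leaving out each array.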

Additional observations from a re-analysis of the deposited data

Results flagged for a closer look

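Single animals stood apart from the other 5 cocaine-treated mutants for 12 of the named probe sets. About 1 in 20 groups of 6 like values would do so by chance. These 6 arrays mix the numbering series and include animal III, so that rate cannot be applied to them. No count over all 12674 probe sets is given, so the 12 are a description. Cocaine animal 1 was low for Arc (8.48). Animal III was low for Foxp2 (4.71), Ppp2r2b (9.16), Gria2 (11.65), Dmkn (8.91) and Ppp3cb (8.94) and high for Klf9 (14.27), Csf1r (11.08) and Ifit2 (5.15). Animal I was low for Dbp (12.70) and Nrgn (11.62), and animal 9 was high for Penk (13.94). Klf9 is a glucocorticoid-induced factor and Csf1r a microglial receptor.

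Animals I and VI differed from animals 1, 5 and 9 past the threshold for a further set, by a test of the difference itself. Higher in I and VI were both Egr2 probe sets (1.94 each), Tiparp (1.48 and 1.54), Gdap1 (1.40 and 0.22), Oga (0.97, 0.76 and 0.87) and Rgs4 (0.49, 0.93 and 2.03). So were Foxp2 (0.66), Prkar1a (0.32), Slmap (0.21), Etnk1 (0.20), Ppp3ca (0.19), Camk4 1421941_at (0.99), Homer1 (0.90), Clock (0.44) and Ppp3cb (0.65). Lower were Dbp (−0.40), Ckmt1 (−0.76) and Tmem87a (−4.26). Camk4 1421941_at itself stood at 6.10 and 6.06 in I and VI and 3.80 in III. The numbering series differed in actin 3' minus 5' too, and its part was not tested.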

How the results depend on the processing

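Against 10 probe sets past the threshold in animals 1, 5 and 9, there were 2 with no filter, 1 without a variance trend, 0 in an ordinary linear model, 3 with 12 Arabic-numbered arrays, 6 with an additive Roman term, 1 with the 9 mutant arrays, 1 with only the arrays compared, 0 with animal III in the Roman cell, 34 with array weights, 4 with the actin covariate and 29 at an adjusted p under 0.1. Leaving out 1 array gave 0 to 19. Samples of the same replicate number deviated with correlations of −0.17, −0.09 and −0.04, so these numbers do not pair them, and the replicate block gave 1. In blocks of 4 consecutive animal numbers the correlations were 0.23, 0.09 and 0.15 and 6 of 6 animals correlated best within their own block, a hint from the data and not the design; that block gave 2. No rise passed without a trend, in the ordinary model, with animal III in the Roman cell, in either block, or in the fits of 12 Arabic, 9 mutant or only the compared arrays. All 6 cocaine animals together gave 14 and 5 without animal III gave 12, all of them higher, with 6 of the 10 shared. For animals I and VI (527) there were 303 with no filter, 344 in an ordinary linear model, 203 with only the arrays compared, 120 with animal III in the cell, 0 with the actin covariate, 1149 at an adjusted p under 0.1 and 145 to 738 with 1 array left out; a group of 5 could not apply there. The difference between genotypes stayed at 0 in every setting run (261 to 1078 at an unadjusted p under 0.05). Over 35 alternatives Rgs4 1416287_at passed in 29, Fos in 21, Tob2 and Rgs4 1416286_at in 20, Egr2 in 14, Nr4a1 in 12, Tiparp in 11, Oga in 10 and Gdap1 in 7, with no change of sign. Signs turned for probe sets that had not passed, 1 of them of Rgs4, whose other 2 had: with the 5 cocaine animals Rgs4 1448285_at gave 0.10, Tmem87a −0.0945, Ckmt1 −0.099 and Camk4 0.18 and 0.049; with all 6, Ckmt1 gave −0.035; with 1 array left out, Camk4 1426167_a_at ran from −0.13 to 0.034. The cause was not tested. Dim probe sets understate folds under GCRMA.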

Other observations

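Tmem87a, a Golgi membrane protein gene, was either high or low with nothing between. Probe set 1424454_at lay between 7.42 and 7.74 in 11 arrays and between 2.91 and 3.43 in the other 7. Low arrays were found in 1 of 3 mutant saline, 2 of 6 mutant cocaine, 0 of 3 control saline and 4 of 6 control cocaine animals. Among mutants these were saline animal 6 and cocaine animals I and VI. Ckmt1, which lies on the same chromosome with 21 protein-coding genes between, stood at 11.13, 10.86 and 11.14 in saline animals 3, 6 and 11, at 11.30, 11.26 and 11.18 in cocaine animals 1, 5 and 9, at 10.54 and 10.44 in I and VI and at 11.33 in III. The cause was not tested.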
